A study of Mus musculus with 6 samples.

Results

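The Hippo pathway and its transcriptional output were examined in CGR8 mouse embryonic stem cells after depletion of RSL24D1, a factor of large ribosomal subunit assembly. The genes were 10 rows of the count table taken by symbol, out of 22332 symbols: the co-activators Yap1 and Wwtr1, the DNA-binding partners Tead1, Tead2, Tead3 and Tead4, the kinases Lats1 and Lats2, and the YAP-responsive genes Amotl2 and Ankrd1. All 6 libraries came from CGR8 cells, a pluripotent line grown on gelatin in medium with serum (FBS) and LIF and transfected with siRNA 48 hours before total RNA was collected. Of these, 3 had received a pool of non-targeting siRNAs (siCtrl) and 3 a pool against Rsl24d1 (siRSL24D1), so the controls share the transfection and untransfected cells were not analysed here. The design text calls the libraries independent triplicates but does not say whether the cultures were separate, so p-values measure the spread between these libraries. The siRNA pool lowers Rsl24d1 transiently and in part, which limits it as a model of loss of the gene.

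In the Hippo pathway, the kinases MST1 and MST2 activate LATS1 and LATS2, which phosphorylate YAP and its paralog TAZ (the product of Wwtr1) and keep them out of the nucleus. Unphosphorylated YAP and TAZ bind TEAD factors on DNA and drive genes such as those for CCN1, CCN2, ANKRD1 and AMOTL2. In the early mouse embryo this switch separates trophectoderm, where TEAD4 with nuclear YAP is needed, from the inner cell mass from which embryonic stem cells derive. Much of the control acts on phosphorylation and location of the proteins, which transcript counts do not measure.

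Library totals lay between 30943635 and 35214000 estimated counts. Rsl24d1 was at 97.9 to 103 CPM in siCtrl and 52.1 to 55.6 CPM in siRSL24D1 (CPM being each library's count share after TMM scaling), a log2 fold change of -0.89 (edgeR adjusted p = 2.0e-05). The 10 pluripotent stem cell markers tested summed to 2601 to 2907 CPM in siCtrl and 2345 to 2452 CPM in siRSL24D1, with Pou5f1, which encodes OCT4, averaging 482 CPM in both. Of these 10 markers 1 rose and 5 fell, beside 21.2% higher and 20.0% lower over all genes tested. Among the falls were Nanog (247 to 176 CPM on average) and Dppa5a (1158 to 836 CPM), which carried most of the lower sum. The libraries also differed along a line that the siRNA label does not give. Genes whose longest annotated transcript is at least 6000 bases (2475 genes) took 16.6%, 16.8% and 19.0% of the counts in siCtrl replicates 1, 2 and 3, and 19.1%, 17.3% and 19.3% in siRSL24D1 replicates 1, 2 and 3. Thus siCtrl replicate 3 lay with siRSL24D1 replicates 1 and 3, and siRSL24D1 replicate 2 lay nearer to the remaining controls.

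Among the 10 genes, Ankrd1, Tead4, Tead2 and Wwtr1 fell in siRSL24D1 and Tead3 rose, while Yap1, Tead1, Lats1, Lats2 and Amotl2 did not pass the test (edgeR quasi-likelihood test, adjusted p under 0.05 over 15084 genes). Ankrd1 went to 0.543 and Tead4 to 0.642 of the siCtrl level. The other changes were small: Tead2 was at 0.888, Wwtr1 at 0.907 and Tead3 at 1.196 times its siCtrl level. Much of the transcriptome differed between the groups: 21.2% of all genes tested were called higher and 20.0% lower (41.2% in either direction), so the 1 rise and 4 falls among 10 genes are a share near that background. Without siCtrl replicate 1 the counts were 0 and 2. The falls numbered 2 also without siCtrl replicate 2, siRSL24D1 replicate 1 or siRSL24D1 replicate 3. Ankrd1 and Tead4 kept their calls in each case. Lower calls over all genes tested then numbered 2368, 2147, 2499 and 2193 in that order, against 3021 with all libraries. The median absolute log2 fold change was 0.16 over the 10 genes and 0.20 over all genes tested, and the signed medians were -0.02 and 0.02. The libraries of the groups did not overlap for 5 of the 10 genes, beside 53.0% of all genes tested.

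**Figure D1:**
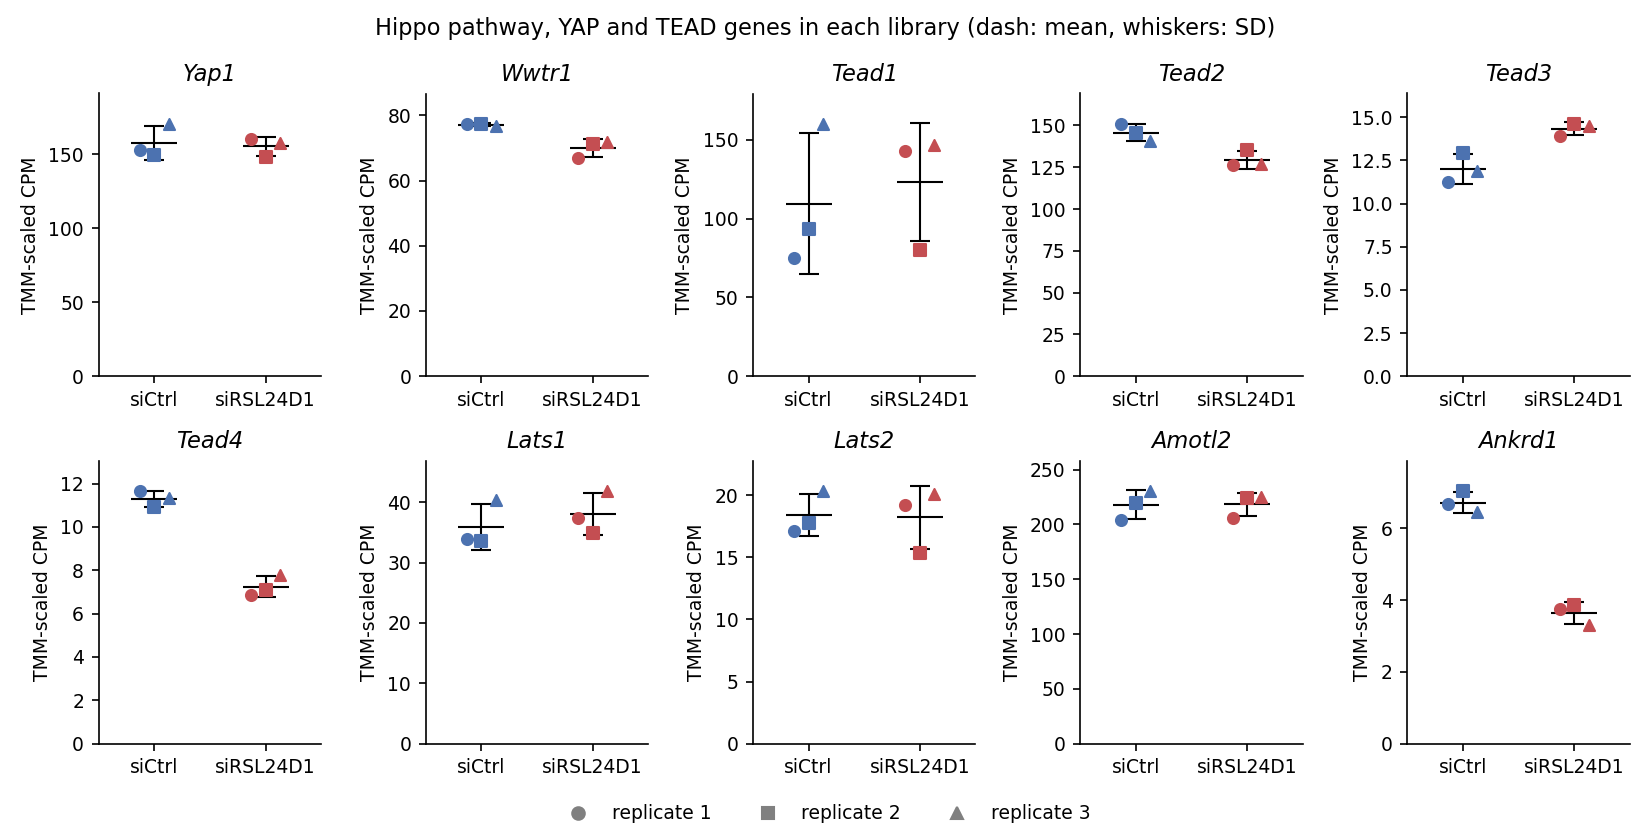
Level of each of the 10 genes in every library (y axis, TMM-scaled CPM from 0) by siRNA group (x axis), with the mean as a dash and the SD as whiskers (n = 3 libraries a group) and symbols for replicate numbers. The groups separate for Wwtr1, Tead2, Tead3, Tead4 and Ankrd1, while Tead1 runs from 75.0 to 160 CPM within siCtrl alone.

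Yap1 encodes the co-activator YAP (chromosome 9, 7931999 to 8004596, minus strand, GRCm38; protein-coding, as are all 10 genes). It was measured at 152, 149 and 170 CPM in siCtrl and 160, 148 and 157 CPM in siRSL24D1. The groups overlapped, and siCtrl replicate 3 had the highest value. The log2 fold change was -0.02 with a 95% interval from -0.16 to 0.11 (edgeR adjusted p = 0.806), and its sign depended on the scaling, being 0.00 and positive with library totals only. With the share of counts in long-transcript genes as a covariate, an alternative chosen after seeing the data, Yap1 was at -0.09 (adjusted p = 0.0346, with a range of 0.0346 to 0.976 over 16 alternatives).

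Wwtr1, which encodes TAZ (chromosome 3, 57455649 to 57575910, minus strand), was at 77.4, 77.4 and 76.7 CPM in siCtrl and at 66.9, 71.1 and 71.9 CPM in siRSL24D1. All 3 siRSL24D1 libraries lay below the siCtrl libraries, whose values spread by only 0.401 CPM (SD). Wwtr1 thus fell by 0.14 on the log2 scale, SE 0.04 (edgeR adjusted p = 0.0295). This call was lost without siCtrl replicate 1 (adjusted p = 0.0867), siCtrl replicate 2 (0.093), siRSL24D1 replicate 1 (0.086) or siRSL24D1 replicate 3 (0.0508), over a range of 0.0159 to 0.093 in 16 alternatives.

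Per kilobase of exon, Yap1 stood at 17.0 and Wwtr1 at 16.2 CPM in siCtrl (SD 1.23 and 0.084), levels that do not differ beyond their spread. Yap1 made up 51.2 ± 1.91% of the summed per-kilobase level of the pair in siCtrl and 53.4 ± 1.73% in siRSL24D1 (SD, n = 3; exact two-sided permutation p = 0.3, 0.45 adjusted over 6 shares). The near-equal level depends on the length used: with the longest transcript in place of all annotated exons the Yap1 share was 64.4% in siCtrl and 66.3% in siRSL24D1. The smallest p that 3 against 3 libraries can give is 0.1, so no share could pass at 0.05.

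The TEAD genes encode the factors that bring YAP and TAZ to DNA: Tead4 and Tead2 fell, Tead3 rose and Tead1 did not pass the test. Tead4, the family member needed for trophectoderm (chromosome 6, 128224288 to 128300823, minus strand), was at 11.6, 10.9 and 11.3 CPM in siCtrl and at 6.88, 7.07 and 7.79 CPM in siRSL24D1. Every siRSL24D1 library lay well below every siCtrl library. Tead4 fell by 0.64 on the log2 scale, SE 0.08 (edgeR adjusted p = 0.000497), and the call held in all 16 alternatives, at values from -0.70 to -0.60 (adjusted p up to 0.00313). In these bulk libraries, fewer cells that express a gene and less RNA per cell cannot be told apart.

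Other cell types that such cultures can hold were read from their markers. The counts of calls below stand beside 21.2% higher and 20.0% lower over all genes tested. Of 10 tested trophoblast markers 6 rose and 1, Krt7, fell, and the summed level of the list of 11 was 1762 to 1845 CPM in siCtrl and 2245 to 2744 CPM in siRSL24D1, most of it from Krt8 and Krt18. Cdx2, the trophectoderm homeobox factor, rose to 5.09 ± 0.36 CPM from 1.69 ± 0.08 in the controls (SD, n = 3), while Elf5 had 7 and 10 counts over the 3 libraries of each group. Of 11 tested fibroblast markers 4 rose and 3 fell, at summed levels of 551 to 560 and 780 to 910 CPM. The smooth muscle genes Tagln (259 to 458 CPM on average) and Acta2 (63.8 to 159 CPM) carried the higher sum. Of the other markers, Col3a1 (13.3 to 20.2 CPM) and Fbn1 (30.3 to 38.2 CPM) rose, and Col1a2, Pdgfrb and Mmp2 fell. Lum had 23 and 19 counts per group. Of 9 tested primitive endoderm markers 3 rose and 2 fell, at 261 to 274 and 362 to 388 CPM. The higher sum came from Col4a1, a basement membrane collagen that averaged 171 and 286 CPM. Gata4 (1.8 to 2.7 CPM on average) and Gata6 (1.8 to 2.5 CPM) also rose, at low levels, while Pdgfra and Dab2 fell. The markers named here were chosen after their values were seen. The part of such cells in the values of the 10 genes was not tested.

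Tead2 (chromosome 7, 45215753 to 45233644, plus strand), the most abundant TEAD transcript per kilobase in each library, was at 151, 146 and 141 CPM in siCtrl and at 126, 135 and 127 CPM in siRSL24D1. The groups did not overlap, with siCtrl replicate 3 and siRSL24D1 replicate 2 the closest libraries. Tead2 fell by 0.17 on the log2 scale, SE 0.05 (edgeR adjusted p = 0.0189). The call was lost without siCtrl replicate 1 (adjusted p = 0.0743), siCtrl replicate 2 (0.0658), siRSL24D1 replicate 1 (0.066) or siRSL24D1 replicate 3 (0.0744), in a range of 0.00679 to 0.0744 over 16 alternatives. Cd37, a gene that overlaps Tead2 on the other strand, had 10 to 34 counts a library against 3957 to 4992 for Tead2; the strand setting of the counting is not given in the sources used here.

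Tead3 (chromosome 17, 28331671 to 28350817, minus strand) was the only 1 of the 10 genes to rise. It was at 11.2, 12.9 and 11.9 CPM in siCtrl and at 13.9, 14.6 and 14.5 CPM in siRSL24D1, without overlap. The rise was 0.26 on the log2 scale, SE 0.07 (edgeR adjusted p = 0.021). The rise lost its call under the DESeq2 test (adjusted p = 0.0561) and without siCtrl replicate 1 (0.0755), siRSL24D1 replicate 2 (0.0553) or siRSL24D1 replicate 3 (0.0679), in a range of 0.00899 to 0.0755 over 16 alternatives.

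Tead1 (chromosome 7, 112679318 to 112906807, plus strand) spread most between replicates. It was at 75.0, 93.1 and 160 CPM in siCtrl and at 143, 80.0 and 147 CPM in siRSL24D1, so that the SD was 41.0% of the mean in siCtrl and 30.4% in siRSL24D1, against a median of 6.16% and 6.15% over all genes tested. The high libraries were siCtrl replicate 3 and siRSL24D1 replicates 1 and 3, the same that had 19.0% to 19.3% of their counts in long-transcript genes. The longest Tead1 transcript has 9964 bases. The log2 fold change was 0.17 with a 95% interval from -0.52 to 0.86 (edgeR adjusted p = 0.681), wide enough to hold a rise or a fall of more than the size seen for Wwtr1, Tead2 or Tead3.

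With the long-transcript share as a covariate, chosen after seeing the data, the Tead1 estimate turned to -0.29, SE 0.05 (edgeR adjusted p = 0.000189; range 0.000189 to 0.962 over 16 alternatives). That share was computed from the same libraries, Tead1 reads are part of it, and it was on average higher in siRSL24D1, so the adjusted value is a description and the direction of Tead1 is not settled by 6 libraries. Within the libraries of high share, Tead1 was at 160 CPM in siCtrl replicate 3 against 143 and 147 CPM in siRSL24D1. Among those of low share it was at 75.0 and 93.1 CPM in siCtrl against 80.0 CPM in siRSL24D1 replicate 2, which lies between them. The same covariate kept the calls of Ankrd1 (-0.83), Tead4 (-0.65), Tead3 (0.27), Wwtr1 (-0.13) and Tead2 (-0.12).

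**Figure D2:**
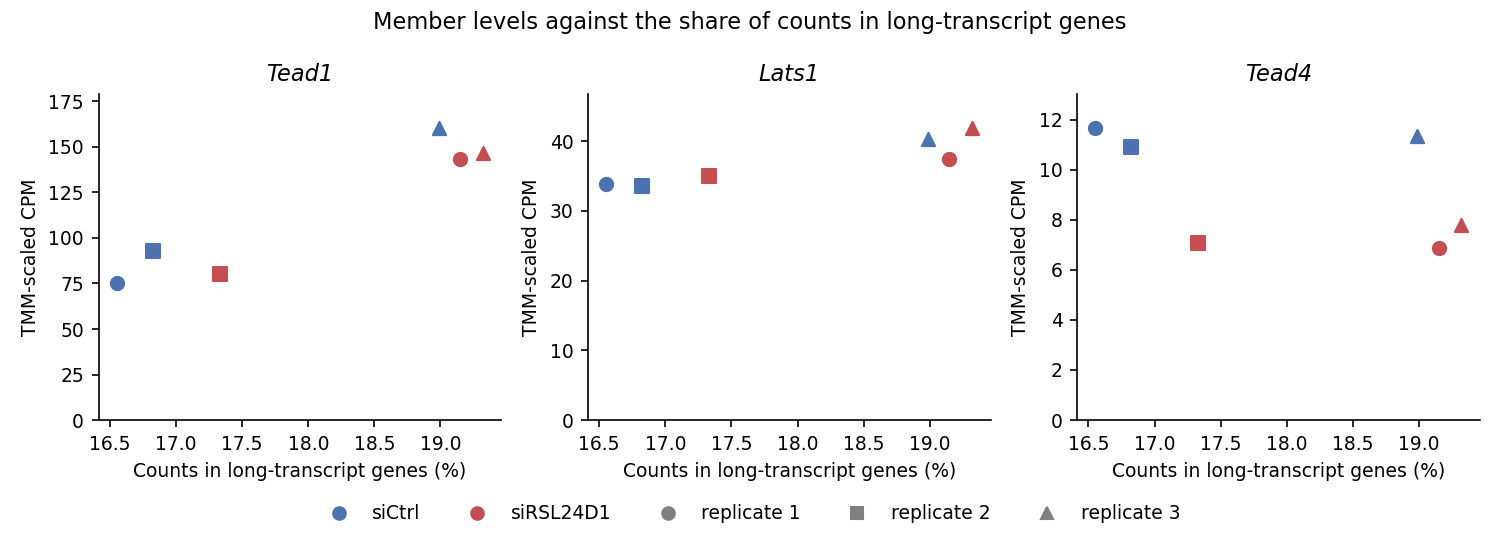
Levels of Tead1, Lats1 and Tead4 (y axes, TMM-scaled CPM from 0) against the percent of each library's counts in genes with a longest transcript of at least 6000 bases (x axis), 1 point a library, coloured by siRNA group. Tead1 is high in the 3 libraries at 19.0% to 19.3%, whichever siRNA they received, while Tead4 separates by siRNA at either end of the axis.

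Within the TEAD family, Tead2 held 70.3 ± 5.90% of the summed per-kilobase level in siCtrl and 67.3 ± 5.65% in siRSL24D1 (SD, n = 3). The Tead4 share was 7.71%, 7.18% and 6.84% in siCtrl and 4.68%, 5.13% and 5.20% in siRSL24D1, and the Tead3 share was 3.98%, 4.55% and 3.84% against 5.07%, 5.68% and 5.19%. For these 2 genes the groups did not overlap (exact two-sided permutation p = 0.1 for each, the smallest possible, and 0.3 adjusted over 6 shares). These shares do not depend on the scaling between libraries. The Tead1 share ran from 13.2% to 25.6% in siCtrl and from 15.4% to 26.0% in siRSL24D1 (exact p = 0.5). The Tead2 share was low where the Tead1 share was high. Both are parts of the same sum and make up most of it, so this opposition is largely built in.

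By per-kilobase level in siCtrl the order of the family was Tead2 (30.4 ± 1.08 CPM), Tead1 (8.06 ± 3.30), Tead4 (3.14 ± 0.10) and Tead3 (1.79 ± 0.13). In siRSL24D1 Tead4 was at 2.01 ± 0.13 and Tead3 at 2.14 ± 0.06 per kilobase, neighbours that do not differ beyond their spread. With the longest transcript as the length, Tead4 and Tead3 were at 3.67 and 3.49 in siCtrl and at 2.36 and 4.17 in siRSL24D1. By either length the mean of Tead4 was above that of Tead3 in siCtrl and below it in siRSL24D1. The size of the gap in each group depends on the length used.

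**Figure D3:**
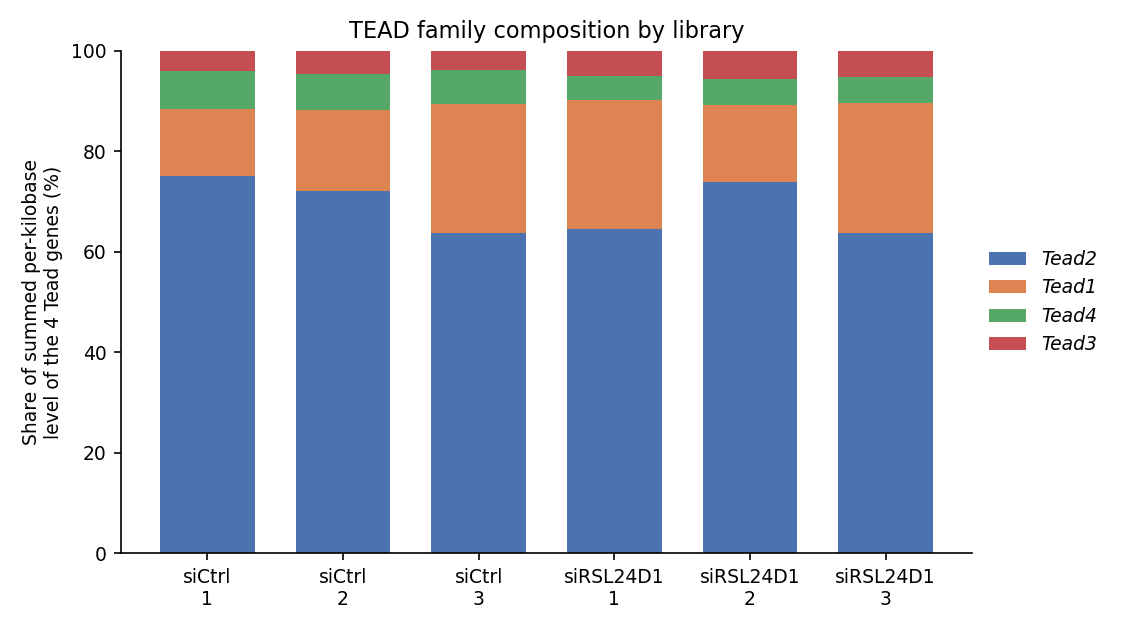
Share of each TEAD gene in the summed per-kilobase level of the family (y axis, percent from 0 to 100) in each library (x axis, siRNA group and replicate). Tead2 is the largest part in all 6 libraries, at 63.7% to 75.1%, and the Tead4 band is thinner in each siRSL24D1 library than in any siCtrl library.

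The LATS kinases, which phosphorylate YAP and TAZ, did not pass the test. Lats1 (chromosome 10, 7681214 to 7716460, plus strand) was at 33.8, 33.5 and 40.4 CPM in siCtrl and at 37.4, 34.97 and 41.8 CPM in siRSL24D1. Its log2 fold change was 0.08 with a 95% interval from -0.12 to 0.29 (edgeR adjusted p = 0.494). Within both groups Lats1 was highest in replicate 3, and as for Tead1 the 3 libraries rich in long transcripts had the 3 highest values. The same held for Yap1 and Lats2, whose longest transcripts have 5282 and 5191 bases, below the limit for long transcripts. It did not hold for Wwtr1, Tead2, Tead3, Tead4, Amotl2 or Ankrd1. With the share of long transcripts as a covariate the Lats1 value was -0.04 (adjusted p = 0.583; range 0.126 to 0.943 over 16 alternatives).

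Lats2 (chromosome 14, 57689662 to 57758388, minus strand) was at 17.1, 17.8 and 20.3 CPM in siCtrl and at 19.2, 15.3 and 20.1 CPM in siRSL24D1, again with overlap. The log2 fold change was -0.02 with a 95% interval from -0.27 to 0.24 (edgeR adjusted p = 0.915), and its sign changed with library totals only (0.01). With the long-transcript share as a covariate it was at -0.17 (adjusted p = 0.0407; range 0.0407 to 0.972 over 16 alternatives). Reads of Lats2 may be split with Gm49361, a protein-coding gene model that overlaps it on the same strand and was assigned 0 to 11.8 counts a library. The share of Lats2 in the summed per-kilobase level of the LATS pair was 34.95 ± 0.69% in siCtrl and 33.3 ± 1.80% in siRSL24D1 (SD, n = 3; exact permutation p = 0.3).

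The YAP-responsive genes among the 10 diverged. Ankrd1, a cardiac ankyrin repeat protein widely used as a YAP readout (chromosome 19, 36111961 to 36120099, minus strand), was at 6.69, 7.04 and 6.45 CPM in siCtrl and at 3.76, 3.88 and 3.31 CPM in siRSL24D1. Its counts were 220 to 229 and 110 to 136 a library, and no siRSL24D1 library came near a siCtrl library. Ankrd1 fell by 0.88 on the log2 scale, SE 0.10 (edgeR adjusted p = 0.000353), and the call held in all 16 alternatives, at -0.93 to -0.81 (adjusted p up to 0.00288).

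Amotl2, an angiomotin family protein that binds YAP and is itself induced by it (chromosome 9, 102716672 to 102733418, plus strand), was the most abundant of the 10 genes, at 34.7 CPM per kilobase in both groups. It was at 204, 219 and 230 CPM in siCtrl and at 206, 224 and 225 CPM in siRSL24D1. Its log2 fold change of 0.00 had a 95% interval from -0.13 to 0.13 (edgeR adjusted p = 0.981), and other scalings gave the opposite sign. For Amotl2 the interval leaves out any change of the size seen for Ankrd1 or Tead4.

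TEAD factors recognise the motif GGAATG, which reads CATTCC on the other strand. Promoter windows were taken from RefSeq (GRCm38.p6) for 8 of the 10 genes and for 11 of 18 further target genes, and the 250 bases before the annotated start were searched on both strands. The motif occurred in 12.6% of 32851 such windows and in a window of 14.4% of 27025 genes. It was found for 5 of the 8 genes, Yap1, Wwtr1, Tead3, Amotl2 and Ankrd1, and for 3 of the 11 targets, Ccn1, Axl and Crim1. A match describes the letters of a window only. The windows of Ankrd1, which fell, of Amotl2, which did not pass, and of Ccn1 (listed in the count table as Cyr61), which rose, are shown in full because these 3 YAP-responsive genes carry the same motif and differ in response; capitals mark the motif.
Ankrd1 (chr19:36119845-36120094, minus strand): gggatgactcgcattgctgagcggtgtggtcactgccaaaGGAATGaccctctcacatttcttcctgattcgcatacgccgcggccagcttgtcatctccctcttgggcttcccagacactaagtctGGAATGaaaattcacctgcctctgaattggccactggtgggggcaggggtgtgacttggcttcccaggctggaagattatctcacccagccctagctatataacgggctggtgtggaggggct
Amotl2 (chr9:102717554-102717803, plus strand): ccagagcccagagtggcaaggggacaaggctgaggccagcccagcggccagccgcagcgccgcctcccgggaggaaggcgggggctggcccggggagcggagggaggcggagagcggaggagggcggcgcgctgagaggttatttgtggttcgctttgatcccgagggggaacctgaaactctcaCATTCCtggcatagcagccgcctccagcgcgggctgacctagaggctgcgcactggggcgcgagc
Ccn1 (chr3:145649986-145650235, minus strand): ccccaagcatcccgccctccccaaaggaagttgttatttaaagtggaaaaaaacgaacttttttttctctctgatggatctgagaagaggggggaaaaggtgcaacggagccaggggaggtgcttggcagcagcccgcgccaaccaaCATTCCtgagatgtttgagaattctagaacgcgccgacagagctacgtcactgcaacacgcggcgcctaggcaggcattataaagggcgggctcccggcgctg

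The Ankrd1 window holds the motif at 2 places, beginning 210 and 123 bases before the start. The Amotl2 window holds it 65 bases and the Ccn1 window 103 bases before the start. The co-activator genes and Tead3 carry it too, and the 30 bases around the motif are given for the first window of each gene, since these genes encode the factors that act on it.
Yap1 (chr9:8004720-8004749, minus strand): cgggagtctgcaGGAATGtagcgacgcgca
Wwtr1 (chr3:57576029-57576058, minus strand): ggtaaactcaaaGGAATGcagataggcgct
Tead3 (chr17:28350970-28350999, minus strand): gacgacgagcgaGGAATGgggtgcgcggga

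Across the 18 further YAP and TEAD target genes, 8 rose, 3 fell and 7 did not pass, at a median log2 fold change of 0.20 beside 0.02 over all genes tested, of which 21.2% rose and 20.0% fell. The 3 largest rises were those of Foxf2, a forkhead factor, at 2.11 (13 counts in all controls together and 57 after depletion), Fjx1, a Golgi kinase of the Fat and Dachsous system, at 0.66, and Myof, a membrane repair protein, at 0.58. Myof was at 78.3, 77.8 and 79.3 CPM in siCtrl and at 113, 120 and 120 CPM in siRSL24D1. The 3 falls were those of Igfbp3, a binding protein of insulin-like growth factors, at -0.52, Nuak2, an AMPK-related kinase, at -0.51, and Nt5e, the ecto-enzyme CD73, at -0.50. All 6 had edgeR adjusted p-values up to 0.00299.

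Genes often read as YAP output went in opposite directions. Cyr61, Ctgf and Axl are named here after their values were seen. Cyr61 was at 70.9, 71.8 and 81.1 CPM in siCtrl and at 91.9, 105 and 104 CPM in siRSL24D1, a log2 fold change of 0.42 (edgeR adjusted p = 0.00208). Ctgf, which encodes CCN2, rose by 0.15 (adjusted p = 0.0388), with siRSL24D1 libraries at 139 to 155 CPM and siCtrl libraries at 132 to 137 CPM. Axl, a receptor tyrosine kinase, rose by 0.58 (adjusted p = 0.000246). Apart from the covariate, the alternatives were not read gene by gene for Cyr61, Ctgf and Axl. The 8 rises of the target list were 7 to 10 without 1 library and 7 under the DESeq2 test. The fall of Ankrd1 stands beside the rises of Cyr61, Ctgf and Axl in the same 6 libraries.

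**Figure D4:**
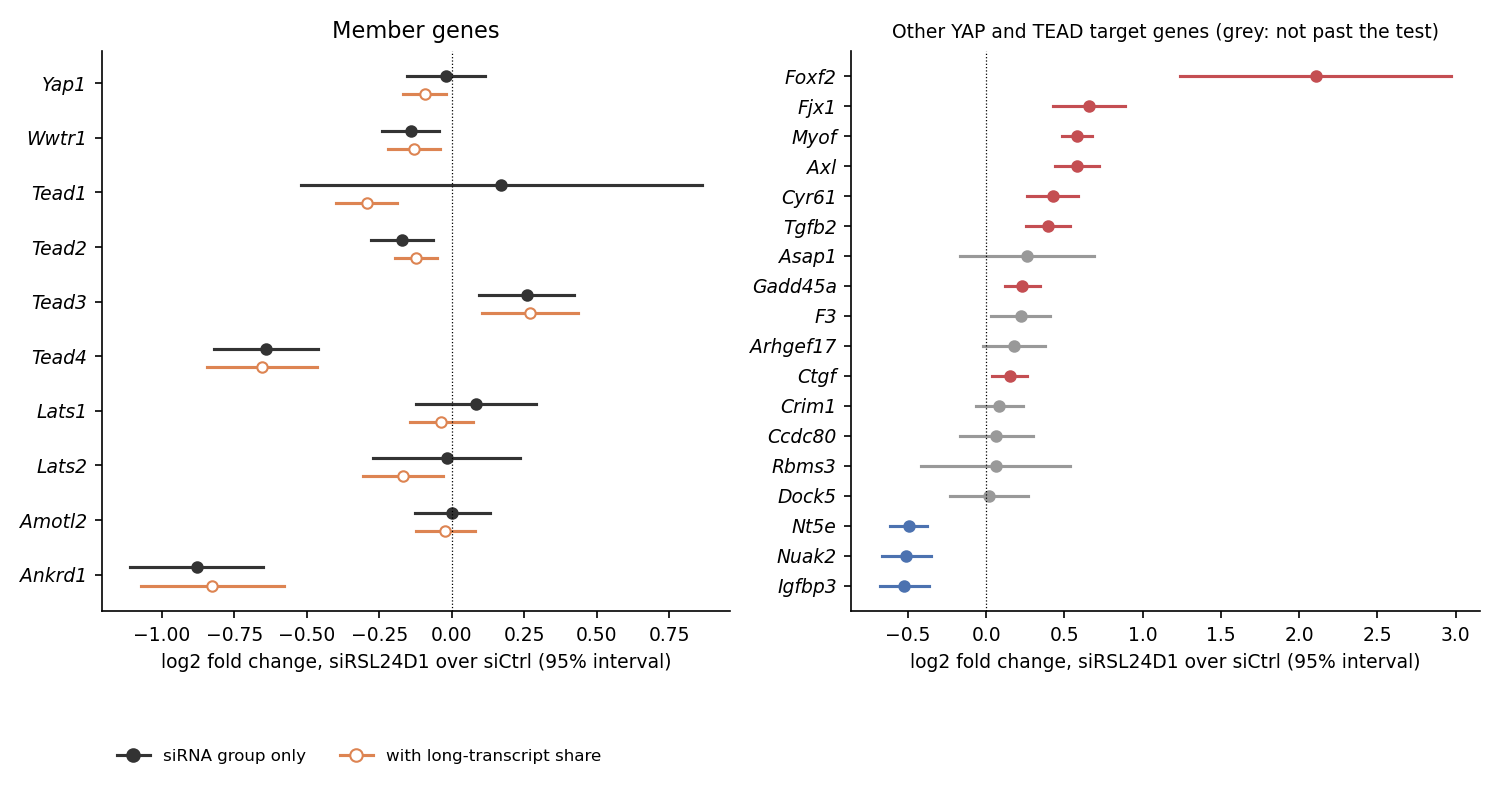
Log2 fold change of siRSL24D1 over siCtrl (x axes) with 95% intervals for the 10 genes (left) and for 18 further YAP and TEAD target genes (right; red rose, blue fell, grey did not pass the test). On the left, open symbols add the long-transcript share of each library as a covariate: Tead1 moves from 0.17 to -0.29 while Tead4 and Ankrd1 stay near -0.65 and -0.83.

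Among the TEAD cofactors of the vestigial-like family, which compete with YAP for TEAD factors, Vgll3 rose and Vgll1 fell. Vgll3 was at 22.6, 21.8 and 22.9 CPM in siCtrl and at 37.7, 38.7 and 42.4 CPM in siRSL24D1, a log2 fold change of 0.82 (edgeR adjusted p = 5.1e-05). Vgll1 was rare, with 114 counts in the 3 control libraries together and 39 after depletion, and was at -1.54 (adjusted p = 0.00622). Vgll4 was at 0.02 (adjusted p = 0.874), and Vgll2, with 0 and 5 counts, was not tested.

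Of 59 tested genes in the remaining pathway lists, cofactors included, 21 rose and 8 fell, at a median of 0.07, beside 21.2% higher, 20.0% lower and a median of 0.02 over all genes tested. Without siCtrl replicate 2, 13 of them rose, and higher calls over all genes tested were 2210 in place of 3191. In the kinase core and its scaffolds, 7 of 17 rose and 2 fell. Tnik, a kinase of the MAP4K group, rose by 0.56, Mob1b, a LATS co-activator, by 0.53 and Stk38l, an NDR kinase related to LATS, by 0.47. The falls were those of Taok3, at -0.35, and Stk3, which encodes MST2, at -0.33. Stk4, the gene of the paralog MST1, was named after its values were seen. It rose by 0.27 (edgeR adjusted p = 0.000839), with libraries at 119, 121 and 120 CPM in siCtrl against 141, 148 and 146 CPM.

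Of 22 upstream and junctional regulators, 9 rose and 3 fell, beside 21.2% higher and 20.0% lower over all genes tested. Fat4, a giant cadherin that acts as a receptor at cell contacts, averaged 3.38 ± 0.71 CPM in the controls and 10.6 ± 1.59 after depletion (SD, n = 3), and so rose by 1.65 on the log2 scale (edgeR adjusted p = 0.000219). Its ligand Dchs1 rose by 0.67 and the related Fat1 by 0.58, but the groups overlapped for both. These are very long transcripts, and Fat1 was at 606, 694 and 987 CPM in siCtrl and at 1172, 949 and 1301 CPM in siRSL24D1, with siCtrl replicate 3 high as for Tead1. With the long-transcript share as a covariate Fat4 was at 1.43, Dchs1 at 0.39 and Fat1 at 0.32 (adjusted p = 1.26e-07, 0.00925 and 3.13e-05). Dchs1 and Fat1 lost their calls without siCtrl replicate 1 (adjusted p = 0.11 and 0.079), siCtrl replicate 2 (0.13 and 0.103), siRSL24D1 replicate 1 (0.111 and 0.092) or siRSL24D1 replicate 3 (0.123 and 0.107). Fat1 also lost its call under the DESeq2 test (adjusted p = 0.0574).

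The lower regulators were Crb3, an apical polarity protein, at -0.46, Wtip, a LIM protein of the Ajuba family, at -0.31, and Llgl1, a basolateral polarity protein, at -0.25. Angiomotins other than Amotl2, named after their values were seen, rose: Amot by 0.52 and Amotl1 by 0.28 (edgeR adjusted p = 0.000575 and 0.00204). Amot was at 133, 134 and 154 CPM in siCtrl and at 211, 190 and 201 CPM in siRSL24D1, without overlap.

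Of 17 genes for the STRIPAK phosphatase complex, which opposes MST kinases, and for YAP destruction, 4 rose and 2 fell. Among all genes tested 21.2% rose and 20.0% fell. Slmap, a STRIPAK subunit, was at 0.56, but at 0.34 with the long-transcript share as a covariate, and lost its call without siCtrl replicate 2 (adjusted p = 0.061), siRSL24D1 replicate 1 (0.0626) or siRSL24D1 replicate 3 (0.0626). The casein kinases that mark YAP for destruction moved apart, Csnk1d at 0.15 and Csnk1e at -0.24. Csnk1d lost its call without siCtrl replicate 1 (adjusted p = 0.0605), siCtrl replicate 2 (0.084), siRSL24D1 replicate 1 (0.0517) or siRSL24D1 replicate 2 (0.0546). Mob4, a STRIPAK subunit named after its values were seen, was the remaining gene to rise, at 0.12 (edgeR adjusted p = 0.0401). Apart from the covariate, the alternatives were not read for Mob4. Btrc, the ubiquitin ligase subunit, was at -0.25, and Ppp2r1b, a PP2A scaffold, at 0.13 (adjusted p = 0.0481), a call lost in 10 of 16 alternatives (0.0288 to 0.196 over all). Of these, 5 left out siCtrl replicate 1 (adjusted p = 0.103), siCtrl replicate 2 (0.196), siRSL24D1 replicate 1 (0.101), siRSL24D1 replicate 2 (0.107) or siRSL24D1 replicate 3 (0.0954).

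The 3 genes whose pattern over the 6 libraries was most like that of Ankrd1, the gene of the 10 with the largest change, were Tmco6, Ly6e and Pik3cd, out of 10167 genes whose log2 CPM averaged 3 or more. Their mean-centred log2 CPM differed from that of Ankrd1 by a root mean square of 0.03, 0.036 and 0.04, and their log2 fold changes were -0.87, -0.88 and -0.82. The likeness is over 6 libraries of 2 groups, which all 4 genes share.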

How the data were processed

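The deposited table holds the authors' estimated counts per gene symbol, not scaled between libraries; 21.59% to 22.65% of a library's values are not whole at a tolerance of 1e-09. Per the submitters' processing notes, STAR 2.7.0f, Salmon 0.14.1 and GRCm38 were used; what each did, the annotation and the strand setting are not stated in these sources. Per the labels' protocols, RNA was depleted of ribosomal RNA and prepared with a stranded total RNA kit. The 10 genes and all gene lists were chosen with earlier results of these data known.

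Estimated counts were rounded, filtered with filterByExpr (minimum count 10, minimum total 15; all 10 genes passed), scaled by TMM and tested by the two-sided quasi-likelihood F test of edgeR 4.0.16 in R 4.3.3 with Benjamini-Hochberg adjustment over 15084 genes. Standard errors are the absolute log2 fold change over the square root of F, and 95% intervals use the t distribution of that fit. Per-kilobase levels are CPM over the union of annotated exons (GENCODE M21, GRCm38). Shares were compared by exact permutation in scipy 1.17.1. Named were all 10 genes, Rsl24d1, the 3 called genes with the largest rise and fall of each pathway list and the 3 nearest in pattern to the member with the largest change. Alternatives were DESeq2 size factors, library totals, upper quartile, no filter, at least 1 CPM in 3 libraries, DESeq2 1.42.0, limma-voom (limma 3.58.1), a replicate block, values not rounded, leaving out each library and, chosen after seeing the data, the long-transcript share as a covariate.

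No 2 libraries of a group agreed within sampling noise: chi-square per degree of freedom over genes was 2.68 for siCtrl replicates 1 and 2 and 4.15 to 18.6 for the other pairs.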

Additional observations from a re-analysis of the deposited data

How the results depend on the processing

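The calls of Ankrd1 and Tead4 held in all 16 alternatives run on each. Tead3 was the 1 gene of the 10 called higher, and under the DESeq2 test this count was 0; without 1 library it ranged from 0 to 1. The count of lower genes, 4, was 7 with the long-transcript share as a covariate, and 2 to 4 without 1 library. Lower calls over all genes tested moved as well, from 3021 to 3801 with the covariate and to 2147 to 3285 without 1 library. The 21 higher pathway genes were 13 to 22 without 1 library, the lowest without siCtrl replicate 2. Higher calls over all genes tested, 3191 with all libraries, were 2210 to 3356 without 1 library, the lowest also without siCtrl replicate 2. Values that did not pass changed sign as follows: Yap1 0.0028 and Lats2 0.0061 with library totals only; Amotl2 -0.0084 with DESeq2 size factors, -0.0255 with upper quartile, -0.0039 without a filter, -0.0084 under the DESeq2 test and -0.0225 with the covariate; Tead1 -0.29 and Lats1 -0.0356 with the covariate. Without 1 library they ran from -0.0611 to 0.0279 for Yap1, -0.0361 to 0.54 for Tead1, -0.0937 to 0.0938 for Lats2 and -0.0424 to 0.0421 for Amotl2; the cause was not tested. Upper quartile scaling put 45.0% and library totals 56.7% of all calls on the higher side, against 51.4%. The libraries were not treated as paired by replicate number. Deviations from the group means correlated at -0.584, 0.546 and 0.442 across genes for same-numbered libraries, and not every library correlated best with its own number. With 3 libraries a group, such deviations cannot show whether the libraries were paired. The replicate block gave 6431 calls in place of 6212 and left the members' counts at 1 higher and 4 lower. Depth does not limit the abundant genes; Foxf2 and Vgll1 rest on few counts.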
